A study of Mus musculus with 8 samples.

Results

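The 10 genes described here are Dnmt1, Dnmt3a, Dnmt3b, Tet2, Tet3, Ezh1, Ezh2, Asxl1, Kdm6a and Kdm6b. All but Asxl1 encode enzymes that write or erase methyl groups on DNA or on histone H3. Asxl1 encodes a cofactor in the removal of ubiquitin from histone H2A. The genes were taken by symbol from the 24346 gene symbols of the RNA sequencing, and all 10 were found and passed the filter on low values. The libraries came from wild-type mouse bone marrow, from HSCs (Lin- Sca-1+ c-Kit+ CD48- CD150+) and from LSK cells (Lin- Sca-1+ c-Kit+), each cultured alone or beside red blood cells (RBCs). The 4 groups had 2 libraries each. The mice were 8 to 20 weeks old, the cultures lasted 1 day, and the RBCs were leukocyte-filtered mouse blood irradiated at 20 Gy. After culture, CD45-positive cells were sorted again, about 3000 per library. The LSK gate also takes in the HSCs, so the LSK libraries are a mixture of stem and multipotent progenitor cells. Nothing in the labels says whether the libraries of a group came from separate mice or cultures, so the spread between them may be technical.

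DNA methylation is copied to the new strand at replication by Dnmt1, which is brought to the replication fork by Uhrf1, while Dnmt3a and Dnmt3b set methylation at new sites and the Tet enzymes start its removal by oxidising the methyl group. The Polycomb repressive complex PRC2, with Ezh1 or Ezh2 as its catalytic subunit, methylates H3K27, and Kdm6a (Utx) and Kdm6b (Jmjd3) take this mark off. Asxl1 is the cofactor of the deubiquitinase Bap1, which removes ubiquitin from histone H2A. In blood formation these genes are known for their part in the balance between self-renewal and differentiation of HSCs, and DNMT3A, TET2 and ASXL1 are among the genes most often mutated in human clonal hematopoiesis.

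Levels are given as FPKM, a count of fragments divided by the length of the transcript and the depth of the library. Because of the scaling by length, comparisons between genes depend on the transcript lengths used, and the annotation behind these is not given in the sources used here. Dnmt1 had the highest level of the 10, with a mean over all 8 libraries of 69.0 FPKM and a range of 49.8 to 82.2. Ezh2 (mean 34.2, range 27.4 to 38.9) and Dnmt3b (mean 33.6, range 22.4 to 39.1) followed, and their ranges overlapped. Ezh1 (mean 16.8 FPKM), Kdm6a (12.4) and Asxl1 (9.54) came next, each with a range that overlapped that of its neighbour. Below them, Dnmt3a (7.34), Tet3 (5.14) and Tet2 (3.79) formed a further run of overlapping ranges. Kdm6b was the lowest, with a mean of 1.43 FPKM and no library above 2.29. Among the de novo methyltransferases, the FPKM of Dnmt3b was thus 2.78 to 6.44 times that of Dnmt3a in the same library.

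**Figure D1:**
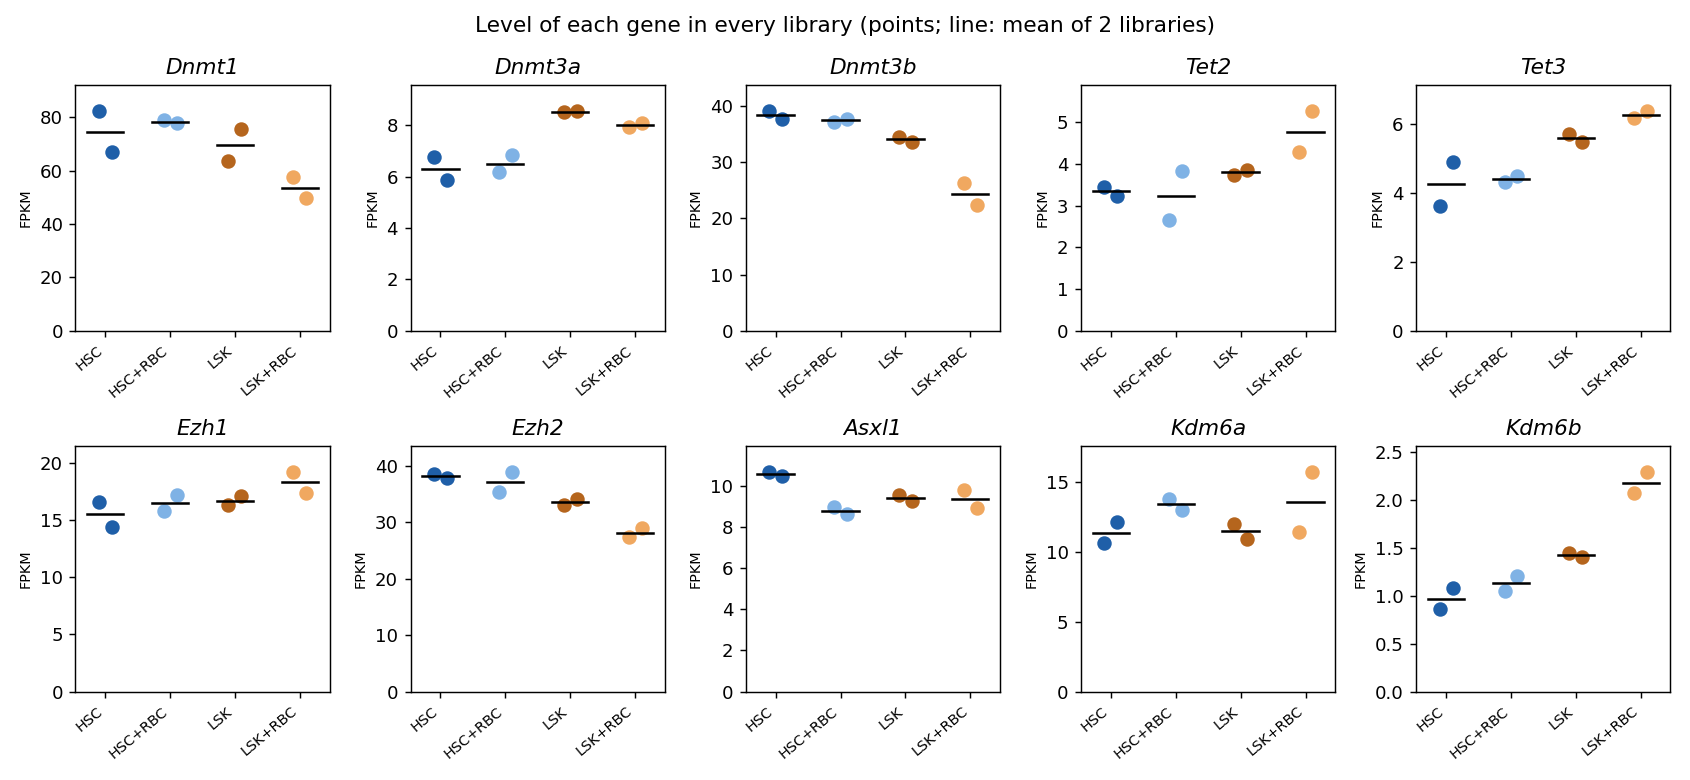
FPKM of the 10 genes (vertical axes, each from 0) in every library, by cell type and culture; points are libraries and lines the mean of the 2 libraries of a group. Dnmt3b, Dnmt1 and Ezh2 lie lowest in the LSK cells with RBCs, where Kdm6b lies highest.

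For the comparisons, log2(FPKM + 1) values were fitted together with limma for 12003 genes, those that reached an FPKM of 1 in 2 or more libraries, and a gene was called at a Benjamini-Hochberg adjusted p under 0.05, with no threshold on the fold. Fold changes on this scale understate those of low genes, which applies most to Kdm6b. No member changed 2-fold in any comparison. With 2 libraries against 2 the smallest two-sided p of an exact permutation test is 0.333, so that the calls between cultures draw on the spread of all genes. Differences are in bulk RNA, in which fewer cells of a type and less RNA per cell cannot be told apart.

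The libraries followed their labels in the gated antigens. Cd48 ranged from 124 to 184 FPKM in the LSK libraries and from 16 to 42.7 in the HSC libraries, and Slamf1, which encodes CD150, between 3.09 and 4.63 in LSK cells and between 5.5 and 10.7 in HSCs. Markers of other cell types were also measured, and whether they came from other cells or from the cultured cells was not tested. The summed FPKM of 9 neutrophil markers, led by S100a8 and S100a9, was 8.54 to 10.6 in HSCs and 46.2 to 252 with RBCs, against 128 to 219 in LSK cells and 362 to 565 with RBCs. Of the 9, Mmp9 was at 0 in both HSC libraries without RBCs, and S100a8 was above 0 in all 8 libraries. The 5 T cell markers summed to at most 1.06 FPKM in every library. The Y-linked genes Uty, Kdm5d, Ddx3y and Eif2s3y were listed at 0 in all 8 libraries and Xist lay between 15.0 and 21.3 FPKM. Relative depth ranged from 0.886 to 1.13 times that of LSK library 1 without RBCs, and the absolute depth is unknown.

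The study asked what RBCs change in HSCs and in LSK cells. In HSCs limma called none of the 10 genes, and none had an unadjusted p under 0.05, where 1.57% of all tested genes were called higher and 0.958% lower. Their log2 fold changes with RBCs lay between -0.24 and 0.22 with a median of 0.04, beside -0.01 over all tested genes. The largest was that of Asxl1, which was at 10.7 and 10.5 FPKM in HSCs and 9.0 and 8.6 with RBCs. Its libraries did not overlap, but the log2 fold change of -0.24 (standard error 0.112, 95% interval -0.49 to 0.02) had a limma adjusted p of 0.41. Kdm6a was the other gene without overlap, at 10.6 and 12.1 FPKM without and 13.8 and 13 with RBCs, and its log2 fold change of 0.22 was not called (limma, adjusted p = 0.61). Thus 1 member lay wholly higher and 1 wholly lower with RBCs, where 19.9% and 21.8% of all tested genes did so. Of 6 tested red blood cell markers, 3 were called higher with RBCs in HSCs and none lower. Of 11 HSC and LSK markers, 1 was called higher and 3 lower.

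The intervals give the precision of this result. For Dnmt3b, with 39.1 and 37.7 FPKM without and 37.2 and 37.8 with RBCs, the 95% interval of the log2 fold change was -0.24 to 0.17. Ezh2 had an interval of -0.23 to 0.14 and Dnmt1 one of -0.19 to 0.35. The widest were those of Tet2 (-0.44 to 0.35), Tet3 (-0.29 to 0.39), Kdm6b (-0.26 to 0.49) and Kdm6a (-0.12 to 0.56), so smaller changes of these genes could not be detected with 2 libraries a group.

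In LSK cells, 4 of the 10 members had an unadjusted limma p under 0.05. Dnmt3b was the single member called, and it was lower with RBCs. It was at 34.6 and 33.6 FPKM in LSK cells and at 26.3 and 22.4 with RBCs, which gave means of 34.1 ± 0.732 and 24.4 ± 2.75 (SD, n = 2 each). The log2 fold change was -0.47 (standard error 0.0908, 95% interval -0.68 to -0.27, limma adjusted p = 0.025), where 1.13% of all tested genes were called lower and 2.32% higher. Leaving out 1 library kept the direction but ended the call in 3 cases, with a limma adjusted p of 0.13 without LSK library 1 and 0.099 without LSK library 2 of the cultures without RBCs, and 0.18 without LSK library 2 with RBCs. It also ended with no filter on low values (0.066), without the mean-variance trend (0.072) and with the 2 LSK groups fitted alone (0.071). With RBCs in LSK cells, 2 of the 4 tested monocyte and macrophage markers were called higher, and the summed FPKM of all 6 on the list was 70 and 81.3 without and 157 and 161 with RBCs. Of 9 neutrophil markers 3 were called higher, of 6 tested red blood cell markers 1 was called higher, and of 5 platelet markers 1 was called lower. The part of such cells in the Dnmt3b difference was not tested.

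Dnmt1 and Ezh2 had the same sign without being called. Dnmt1 was at 63.7 and 75.7 FPKM without and 57.5 and 49.8 with RBCs (log2 fold change -0.37, standard error 0.119, limma adjusted p = 0.14). Ezh2 was at 33.0 and 34.1 FPKM without and 27.4 and 28.9 with RBCs (-0.25, standard error 0.0819, limma adjusted p = 0.15). For both, the 2 libraries with RBCs lay below the 2 without. In the other direction, Kdm6b, the H3K27 demethylase that is known as an inducible gene, was at 1.45 and 1.4 FPKM without and 2.07 and 2.29 with RBCs. Its change of 0.39 on the log2 scale (standard error 0.166) was not called (limma, adjusted p = 0.25). The paper names Kdm6b among upregulated targets of Hes1 in LSK cells with RBCs, from a ranking by limma t-statistics. Tet2 was at 3.74 and 3.85 FPKM without and 4.29 and 5.26 with RBCs (log2 fold change 0.26, limma adjusted p = 0.47). Tet3 (0.14) and Ezh1 (0.13) also lay wholly higher with RBCs, and Dnmt3a (-0.08) wholly lower. In all, 4 members were wholly higher and 4 wholly lower with RBCs, where 24.2% and 26.4% of all tested genes were.

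**Figure D2:**
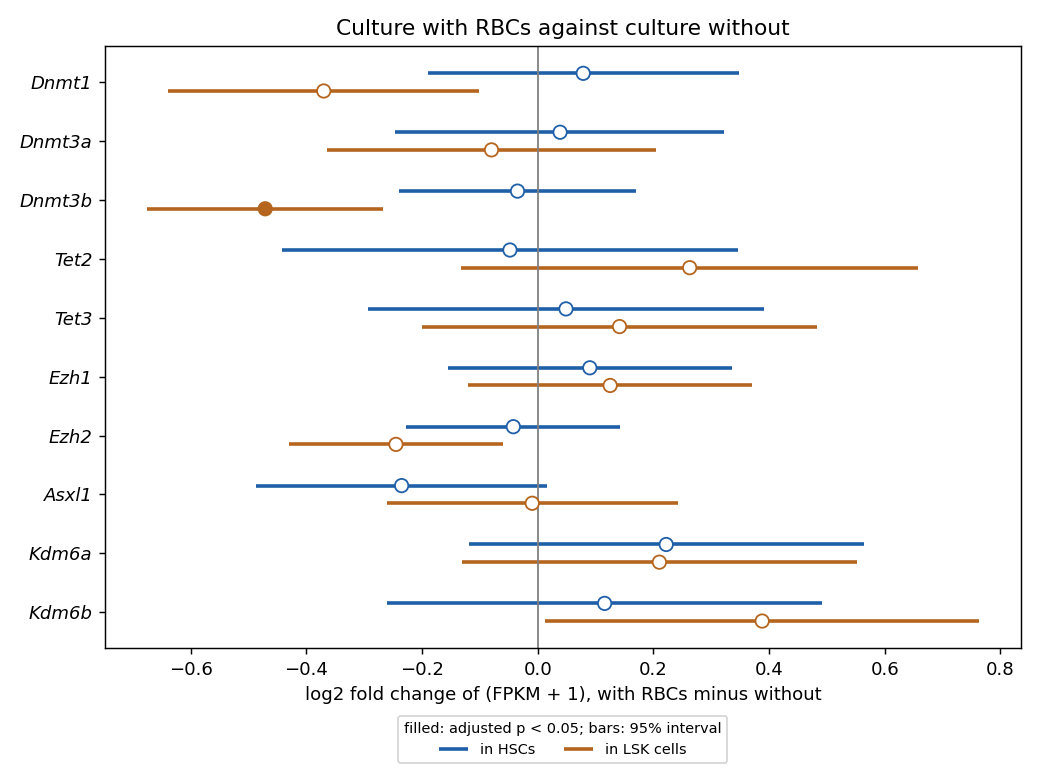
Log2 fold change of (FPKM + 1), culture with RBCs minus culture without (horizontal axis), for the 10 genes in HSCs and in LSK cells; bars are 95% intervals and a filled point marks a limma adjusted p under 0.05. The interval of Dnmt3b in LSK cells, -0.68 to -0.27, belongs to the single filled point.

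Whether RBCs acted differently in the 2 populations was tested as the effect in HSCs minus that in LSK cells. No member was called by limma (2 at an unadjusted p under 0.05), where 0.05% of all tested genes were called higher in this difference and 0.0833% lower. The difference was 0.44 on the log2 scale for Dnmt3b (standard error 0.128, 95% interval 0.15 to 0.73, limma adjusted p = 0.23) and 0.45 for Dnmt1 (standard error 0.169, 95% interval 0.07 to 0.83, limma adjusted p = 0.33). The lower Dnmt3b of LSK cells with RBCs was therefore not shown to be particular to LSK cells. Averaged over both populations, no member was called by limma either (2 at an unadjusted p under 0.05), with 3.38% of all tested genes called higher and 1.99% lower, and Dnmt3b came nearest (log2 fold change -0.25, limma adjusted p = 0.057).

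The cell types were compared over both cultures, with 4 libraries against 4 where the cultures within a cell type had 2 against 2. Averaged over both cultures, 6 of the 10 were called: Dnmt1, Dnmt3b and Ezh2 were lower in LSK cells than in HSCs, and Dnmt3a, Tet3 and Kdm6b were higher. Of all tested genes, 16.8% were called lower and 16.1% higher in this comparison. Without RBCs the log2 differences were -0.09 for Dnmt1, -0.17 for Dnmt3b and -0.18 for Ezh2, and limma called none of the 10. With RBCs these 3 differences were -0.54, -0.61 and -0.38. For Dnmt3a, Tet3 and Kdm6b they were 0.38, 0.34 and 0.30 without RBCs and 0.265, 0.43 and 0.58 with RBCs. The members called lower on average were the 3 with the highest levels. The median over the 10 was a log2 difference of 0.06, beside 0.01 over all tested genes.

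Dnmt3b had the smallest adjusted p of the 10. Its libraries ranged from 37.2 to 39.1 FPKM in HSCs and from 22.4 to 34.6 in LSK cells, with means of 38.0 ± 0.828 and 29.2 ± 5.84 (SD, n = 4 libraries each). Every LSK library lay below every HSC library. The log2 difference was -0.39 (standard error 0.0642, limma adjusted p = 0.0018). The exact two-sided permutation test of 4 against 4 libraries gave 0.0286, the smallest p it can give and the one any gene without overlap must get. That p is not adjusted over the members, and the test disregards the culture of the libraries. Ezh2, the PRC2 subunit that is known to be high in dividing cells, also separated the cell types, at 35.3 to 38.9 FPKM in HSCs and 27.4 to 34.1 in LSK cells (log2 difference -0.28, standard error 0.0579, limma adjusted p = 0.0056). These 2 calls held in all 8 fits that left out 1 library.

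Dnmt1, the maintenance methyltransferase, ranged from 66.8 to 82.2 FPKM in HSCs and from 49.8 to 75.7 in LSK cells, so that the cell types overlapped. Its log2 difference of -0.32 (standard error 0.0843) was called at a limma adjusted p of 0.019. The call was lost in 4 of the 8 fits without 1 library, with a limma adjusted p of 0.062 without LSK library 1 without RBCs, 0.073 without LSK library 2 with RBCs, 0.052 without HSC library 1 without RBCs and 0.053 without HSC library 1 with RBCs. With no filter on low values it was 0.061.

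Dnmt3a went the other way from Dnmt3b. It was at 6.78 and 5.86 FPKM in HSCs and 6.19 and 6.83 in HSCs with RBCs, and at 8.51 and 8.55 in LSK cells and 7.95 and 8.08 in LSK cells with RBCs. The 4 LSK libraries lay above the 4 HSC libraries, and the log2 difference was 0.32 (standard error 0.0891, limma adjusted p = 0.021). The ratio of Dnmt3b to Dnmt3a FPKM was between 5.54 and 6.44 in the HSC libraries and between 2.78 and 4.06 in the LSK libraries. The call of Dnmt3a was kept without HSC library 1 without RBCs and without HSC library 2 with RBCs, and lost without any of the other 6 libraries (limma adjusted p from 0.051 to 0.076).

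Tet3 was at 3.63, 4.90, 4.33 and 4.49 FPKM in the HSC libraries and at 5.73, 5.48, 6.19 and 6.38 in the LSK libraries, in each case the 2 without RBCs first. The groups did not overlap, and the log2 difference was 0.38 (standard error 0.107, limma adjusted p = 0.023). This was the least stable of the 6 calls, kept in the fit without HSC library 2 without RBCs and lost in the 7 others (limma adjusted p from 0.051 to 0.069), and lost with no filter on low values (0.056). Tet2 had a like difference of 0.30 but overlapped, at 2.65 to 3.82 FPKM in HSCs and 3.74 to 5.26 in LSK cells, and was not called (limma, adjusted p = 0.092). Tet1, the Tet enzyme outside the 10, lay between 2.05 and 2.89 FPKM in all libraries.

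Kdm6b showed the largest difference of the 10 on the log2(FPKM + 1) scale. It was at 0.861 to 1.21 FPKM in HSCs and 1.4 to 2.29 in LSK cells, without overlap (log2 difference 0.44, standard error 0.118, limma adjusted p = 0.019). The values rest on at least 82 to 182 recovered reads per library, whose counting error alone is at most 7.41 to 11%. The call was lost without LSK library 2 with RBCs (limma adjusted p = 0.06), without HSC library 1 without RBCs (0.054) and without HSC library 1 with RBCs (0.064). Kdm6a, on the X chromosome and known to escape X inactivation, ranged from 10.6 to 13.8 FPKM in HSCs and from 10.9 to 15.7 in LSK cells, and its log2 difference of 0.01 had a 95% interval of -0.24 to 0.25. Ezh1 (0.12, limma adjusted p = 0.25) and Asxl1 (-0.03, limma adjusted p = 0.77) were not called.

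Over the 4 against 4 libraries, 3 members were wholly higher and 2 wholly lower in LSK cells, where 13.6% and 13.7% of all tested genes were. The neutrophil markers moved with this comparison, 7 of 9 being called higher in LSK cells on average. Of the 4 tested monocyte and macrophage markers 2 were called higher and 1 lower, and of the 5 platelet markers 3 were called lower. The part of such cells in the differences was not tested.

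The cell types were then compared in each culture. Without RBCs no member was called by limma (1 at an unadjusted p under 0.05), where 6.93% of all tested genes were called higher and 7.29% lower in LSK cells. Dnmt3a came nearest (log2 difference 0.38, standard error 0.126, limma adjusted p = 0.076), and passed at 0.048 in a fit without the mean-variance trend. With RBCs 4 members were called, where 11.9% of all tested genes were called higher and 12.5% lower. Dnmt3b was lower in LSK cells by a log2 difference of -0.61 (standard error 0.0908, limma adjusted p = 0.0018), Dnmt1 by -0.54 (standard error 0.119, limma adjusted p = 0.011) and Ezh2 by -0.38 (standard error 0.0819, limma adjusted p = 0.0095). Kdm6b was higher by 0.58 (standard error 0.166, limma adjusted p = 0.033). Tet3, at a difference of 0.43 (standard error 0.151, limma adjusted p = 0.068), was not called, but was without HSC library 1 (0.039) or 2 (0.041) of the cultures without RBCs and without the mean-variance trend (0.049). That these 4 were called in this culture alone is not evidence that the cell types differ more with RBCs, since the test of that difference is the one given above, in which no member was called. The comparison with RBCs also rests on the LSK libraries that were used against the LSK cells without RBCs.

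In the comparison with RBCs, Dnmt3b was called in all 8 fits without 1 library. Dnmt1 was not called without LSK library 2 (limma adjusted p = 0.089) or HSC library 1 (0.06) with RBCs, and Ezh2 not without LSK library 1 (0.063) or HSC library 2 (0.078) with RBCs. Kdm6b was not called without any 1 of the 4 libraries with RBCs (limma adjusted p from 0.085 to 0.16), nor with a pseudocount of 0.1 or quantile normalization (0.054 each) or the 2 groups fitted alone (0.051).

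**Figure D3:**
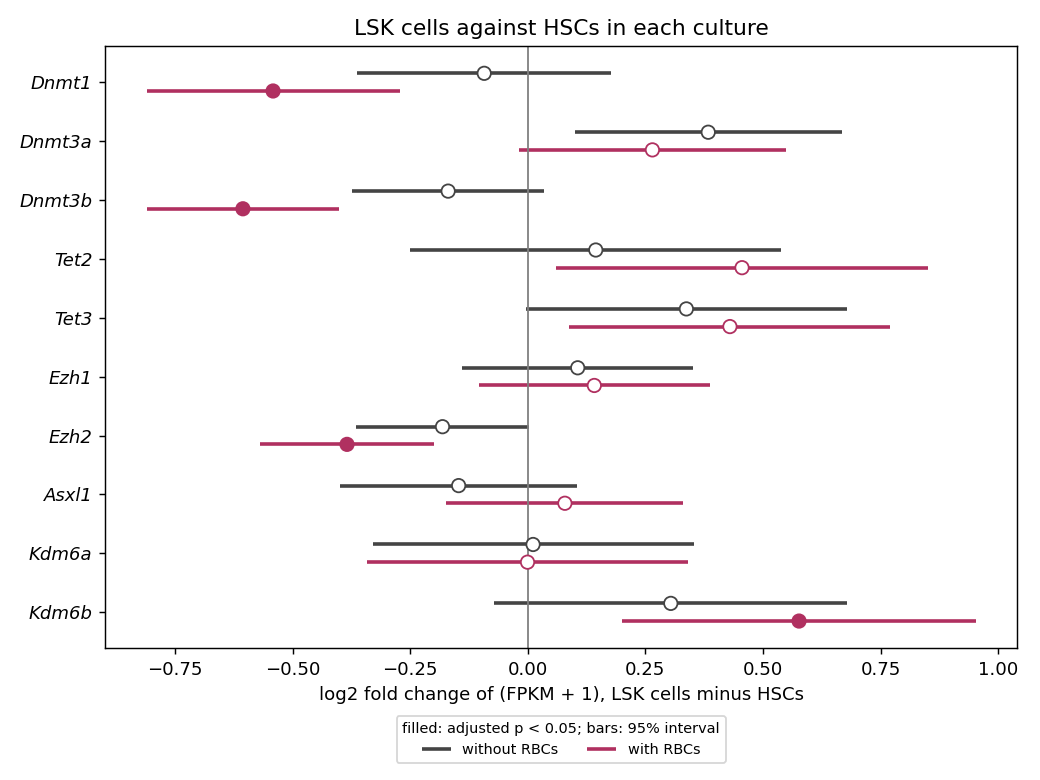
Log2 fold change of (FPKM + 1), LSK cells minus HSCs (horizontal axis), for the 10 genes in the cultures without and with RBCs; bars are 95% intervals and filled points have a limma adjusted p under 0.05. With RBCs, Dnmt1, Dnmt3b and Ezh2 lie to the left and Kdm6b to the right, and no point is filled without RBCs.

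Genes of DNA replication moved beside Dnmt1, Dnmt3b and Ezh2. The list held 16 genes, among them the subunits of the Mcm helicase, the sliding clamp Pcna and the licensing factors Cdc6 and Cdt1. With RBCs, 15 of the 16 were called lower in LSK cells than in HSCs and none higher, with a median log2 difference of -0.64, beside 0.01 over all tested genes. Without RBCs 6 were called lower (median -0.28). With RBCs, Mcm2, Mcm5, Mcm6 and Mcm7 were called lower in LSK cells (median of the 16 -0.27) and none in HSCs (median 0.08, 3 at an unadjusted p under 0.05). The test of the difference between these effects called none of the 16 (9 at an unadjusted p under 0.05). Summed over the 16, FPKM was 2110 and 2050 in HSCs and 2210 and 2150 with RBCs, against 1670 and 1730 in LSK cells and 1470 and 1370 with RBCs. The groups stood in the same order from LSK cells with RBCs to LSK cells to HSCs as for Dnmt3b and Ezh2, and whether the share of dividing cells plays a part in the levels of the members was not tested. Of 12 mitosis genes, 6 were called lower and 1 higher in LSK cells with RBCs, and 2 higher without.

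Mcm5, the replication gene with the largest difference, was at 155 and 126 FPKM in HSCs, 159 and 156 with RBCs, 96.3 and 102 in LSK cells, and 74.7 and 69.4 in LSK cells with RBCs. With RBCs the log2 difference between the cell types was -1.12 (standard error 0.0955, limma adjusted p = 9.6e-05). Uhrf1, the partner of Dnmt1, was at 57.8 and 46.6 FPKM in HSCs, 54.5 and 55.5 with RBCs, 41.4 and 48.9 in LSK cells, and 30.5 and 30.3 in LSK cells with RBCs. It was lower with RBCs in LSK cells (log2 fold change -0.55, standard error 0.113, limma adjusted p = 0.034), and in the cultures with RBCs it was lower in LSK cells than in HSCs (-0.84, limma adjusted p = 0.0011). Hells, a chromatin remodeller needed for DNA methylation, was also lower in LSK cells with RBCs than in HSCs with RBCs (-0.55, limma adjusted p = 0.0074).

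**Figure D4:**
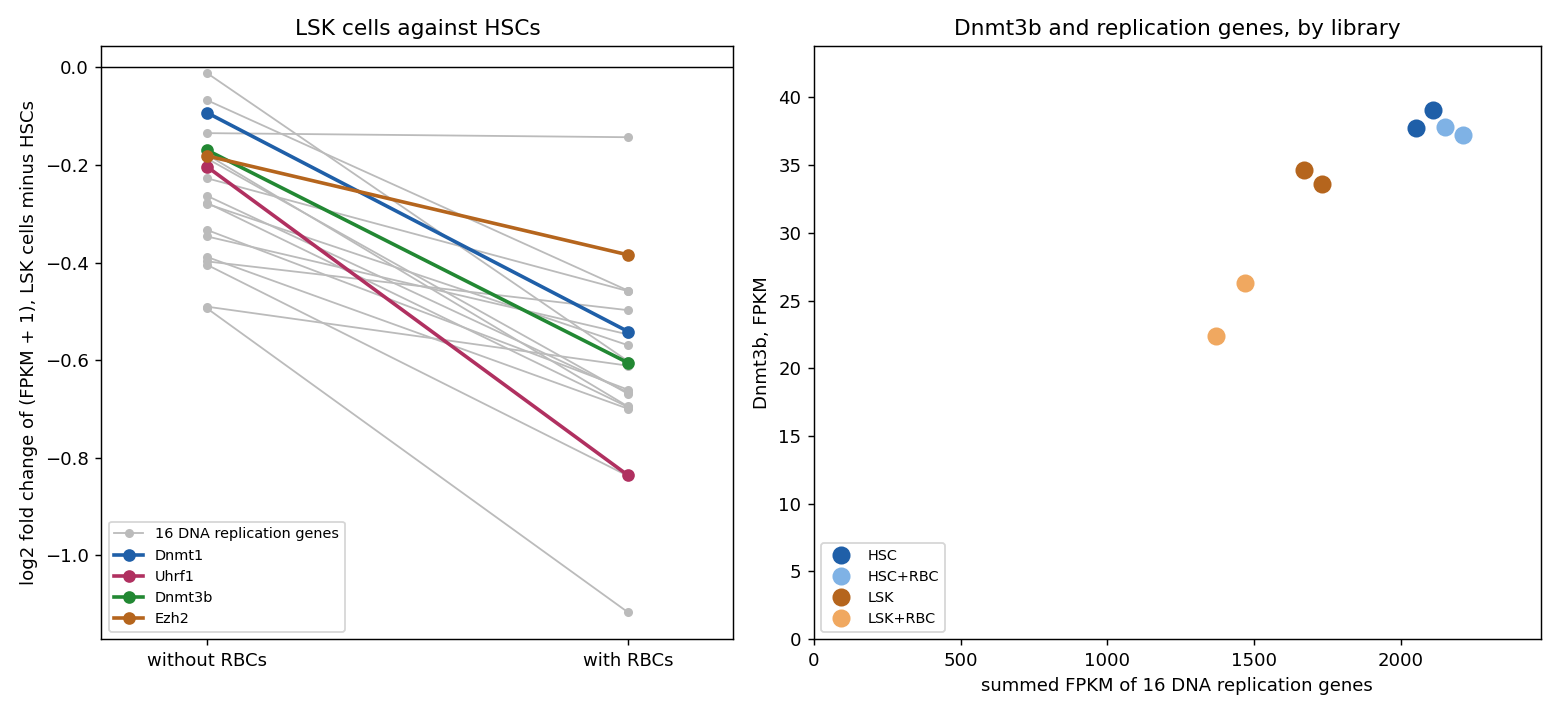
Left, log2 fold change of (FPKM + 1), LSK cells minus HSCs, without and with RBCs, for 16 DNA replication genes (grey) and for Dnmt1, Uhrf1, Dnmt3b and Ezh2. Right, FPKM of Dnmt3b against the summed FPKM of the 16 genes in each library; the 2 LSK libraries with RBCs, at 22.4 and 26.3 FPKM, are lowest on both axes.

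Promoter windows are shown for Dnmt1, its partner Uhrf1, Dnmt3b and Ezh2, all of which moved beside the replication genes. Dnmt3b was also the member called in most comparisons. The windows run from 250 bases before to 20 bases into the transcript (RefSeq, GRCm38.p6), 5′ to 3′ on the strand of the gene, at chr9:20952604-20952873 on the minus strand for Dnmt1, chr17:56304063-56304332 on the plus strand for Uhrf1, chr6:47595011-47595280 on the minus strand for Ezh2 and chr2:153649199-153649468 on the plus strand for Dnmt3b. Where RefSeq lists several starts, as for Dnmt1 and Uhrf1, the window with the most CpG is shown. The Dnmt1 window shown lies inside the gene, which GENCODE M21 places from 20907209 to 20959888, so it belongs to a start within the gene. Capitals mark the letters of E2F sites, known from genes of the start of S phase, in the Dnmt1, Uhrf1 and Ezh2 windows. The Dnmt3b window held no E2F match, and capitals there mark the letters CACGNG. Whether E2F sites play a part in the levels of these genes was not tested.
Dnmt1: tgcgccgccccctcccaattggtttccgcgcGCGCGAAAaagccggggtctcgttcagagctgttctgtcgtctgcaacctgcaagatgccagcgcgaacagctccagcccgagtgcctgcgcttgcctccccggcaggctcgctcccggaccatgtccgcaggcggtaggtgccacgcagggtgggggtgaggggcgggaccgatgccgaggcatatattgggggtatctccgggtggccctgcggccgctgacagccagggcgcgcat
Uhrf1: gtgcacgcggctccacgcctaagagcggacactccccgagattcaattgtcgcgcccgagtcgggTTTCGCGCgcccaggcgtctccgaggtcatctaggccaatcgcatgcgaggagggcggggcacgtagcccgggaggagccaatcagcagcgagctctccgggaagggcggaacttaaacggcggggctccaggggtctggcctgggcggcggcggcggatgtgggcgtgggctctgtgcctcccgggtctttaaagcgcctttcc
Ezh2: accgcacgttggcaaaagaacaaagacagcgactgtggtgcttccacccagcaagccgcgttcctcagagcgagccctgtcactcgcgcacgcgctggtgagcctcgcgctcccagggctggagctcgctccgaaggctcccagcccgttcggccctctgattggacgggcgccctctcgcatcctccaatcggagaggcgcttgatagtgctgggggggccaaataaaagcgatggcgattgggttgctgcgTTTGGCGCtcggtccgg
Dnmt3b: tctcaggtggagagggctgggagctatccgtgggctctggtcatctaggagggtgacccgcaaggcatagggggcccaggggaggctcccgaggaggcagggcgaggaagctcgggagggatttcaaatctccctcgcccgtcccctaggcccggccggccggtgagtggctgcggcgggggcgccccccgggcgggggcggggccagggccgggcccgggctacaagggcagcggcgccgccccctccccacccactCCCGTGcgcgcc

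The E2F letters searched, on both strands, were TTTCCCGC, TTTCGCGC, TTTGCCGC and TTTGGCGC. In windows reaching 50 bases into the transcript, 9 of the 10 members matched an entry, all but Kdm6b. Dnmt1 and Ezh2 held the letters, 2 of 9 members, against 2.6% of 27025 genes and 6 of the 12 replication genes with an entry. A gene was counted if any of its windows held them. The windows of Dnmt1 and Uhrf1 that are not printed held no E2F match. The printed match of Dnmt1 begins 219 bases before the start and a further one lies 33 bases after it, that of Uhrf1 begins 185 bases before the start, and that of Ezh2 lies 3 bases after it. CACGNG, the letters of one class of sites that Hes proteins bind, was searched because Hes1 is the subject of the study. It was found in 6 of 9 members, Dnmt3b, Dnmt3a, Ezh1, Ezh2, Asxl1 and Kdm6a, and in 30.3% of all genes. With each gene taken at its window with the most CpG, the members had a median of 30 CpG and all genes one of 8. The CACGNG letters overlap no E2F match in the members' windows, and a match is a description of the sequence only.

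Other regulators of DNA and histone methylation were compared as 6 lists with 100 genes in the files, of which 94 passed the filter. With RBCs, 2 of the 94 were called higher and none lower in HSCs, and 1 higher and 1 lower in LSK cells. Between LSK cells and HSCs, 5 were called higher and 3 lower without RBCs, 10 higher and 11 lower with RBCs, and 11 in each direction on average. Their median log2 difference between the cell types was 0.05 on average, beside 0.01 over all tested genes. The lists are taken below in the order of their functions.

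Among 20 tested writers, erasers and readers of DNA methylation, the average comparison called 3 higher and 4 lower in LSK cells. Idh1, which makes the 2-oxoglutarate that Tet and Kdm6 enzymes use, was at 33.0 and 36.7 FPKM in HSCs, 28.8 and 30.6 with RBCs, 56.1 and 52.3 in LSK cells, and 62.9 and 65.9 in LSK cells with RBCs (log2 difference 0.86, standard error 0.0592, limma adjusted p = 1.4e-05). Gadd45a, a stress gene linked to DNA demethylation, was higher in LSK cells by a log2 difference of 0.85 (limma adjusted p = 0.00012). Uhrf1 (-0.52) and Gadd45g (-0.46) were lower. Mbd2, a reader of methylated DNA, was higher with RBCs in LSK cells, with 8.92 and 9.68 FPKM without and 26.0 and 27.3 with RBCs (log2 fold change 1.42, standard error 0.274, limma adjusted p = 0.025). In HSCs it was at 32.9 and 17.8 FPKM without and 14.0 and 23.6 with RBCs, libraries that overlapped, and the difference between the effects was not called (-1.82, limma adjusted p = 0.14). Cxxc5, a CpG-binding protein, was the gene of this list called higher with RBCs in HSCs, at 50.7 and 51.5 FPKM without and 82.3 and 70.3 with RBCs (log2 fold change 0.57, standard error 0.0884, limma adjusted p = 0.012).

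Among the 9 other PRC2 genes, Rbbp7, a histone-binding subunit, was lower in LSK cells (log2 difference -0.38, limma adjusted p = 0.00019) and Mtf2 higher (0.16, limma adjusted p = 0.043) on average. The core subunits Eed, at 70.3 to 84.3 FPKM, and Suz12, at 7.27 to 9.79 FPKM, were called in no comparison. Phf1, an accessory subunit, was higher in LSK cells with RBCs than in HSCs with RBCs (log2 difference 0.89, limma adjusted p = 0.02). Of 20 PRC1 genes, 1 was higher and 3 were lower in LSK cells on average, namely Pcgf1 (0.49) against Cbx6 (-0.47), Bmi1 (-0.38) and Pcgf6 (-0.31). For RBCs, limma called none of the PRC2 genes in either population (1 in HSCs and 4 in LSK cells at an unadjusted p under 0.05) and none of the PRC1 genes (0 and 2). Of 9 tested genes of the Bap1 complex, Ogt alone was called on average (0.19, limma adjusted p = 0.028).

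Kdm6a belongs to the H3K4 methyltransferase complexes of the COMPASS family, and 14 genes of these were tested. Wdr5, a shared core subunit, was called higher with RBCs in HSCs, at 52.9 and 52.8 FPKM without and 74.2 and 69.2 with RBCs (log2 fold change 0.43, standard error 0.0683, limma adjusted p = 0.012). The LSK libraries were at 63.6 and 62.7 FPKM without and 52.2 and 52.9 with RBCs. The effects differed by 0.69 on the log2 scale (standard error 0.0966, limma adjusted p = 0.041), and Wdr5 was the 1 gene of the 94 called in that test. Between the cell types on average, the methyltransferases Kmt2a (0.34) and Kmt2d (0.33) were higher and Dpy30 (-0.28) and Men1 (-0.31) lower in LSK cells. Of 22 other genes of histone methylation, 3 were higher and 1 was lower. The H3K4 demethylase Kdm5b was at 13.4 and 12.8 FPKM in HSCs, 12.1 and 11.8 with RBCs, 22.1 and 22.4 in LSK cells, and 24.4 and 25.5 in LSK cells with RBCs (log2 difference 0.86, standard error 0.0643, limma adjusted p = 2.2e-05). Kdm4a (0.47) and Kdm3a (0.41) were higher as well, and Whsc1 (-0.31) was lower.

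Genes known to be controlled by these systems differed in level. The 7 germline genes that depend on DNA methylation were all under the filter and summed to between 0.345 and 1.98 FPKM per library. Of 6 genes known to be under Polycomb control in HSCs, Cdkn2a was listed at 0 in all libraries and Cdkn2b reached at most 0.21 FPKM. Cdkn1c, which encodes the cell cycle inhibitor p57 and is also imprinted, was at 9.99 and 9.39 FPKM in HSCs, 6.75 and 6.59 with RBCs, 3.69 and 3.67 in LSK cells, and 2.74 and 3.23 in LSK cells with RBCs (log2 difference -1.07, standard error 0.0945, limma adjusted p = 5.7e-05). Hmga2 was higher in LSK cells on average (0.37, limma adjusted p = 0.032). Hoxa9 was higher with RBCs in LSK cells, at 12.2 and 11.2 FPKM without and 17.3 and 16.8 with RBCs (log2 fold change 0.51, limma adjusted p = 0.03). In HSCs Hoxa9 was at 15.3 and 14.2 FPKM without and 16.8 and 15.9 with RBCs, which was not called. The difference between its effects was not called either. Among 4 tested imprinted genes, Ndn (-0.86) and Grb10 (-0.40) were lower in LSK cells on average, and H19 and Igf2 reached at most 0.195 and 0.386 FPKM.

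For the 6 members called in any comparison, the genes most like them over the 8 libraries by Pearson's r were sought among all tested genes, as a description without a test, since the libraries share 2 cell types and 2 cultures. Dnmt3b was most like Fut10 (0.984), Anapc5 (0.982) and Kntc1 (0.981), and 71 genes had an r over 0.95 with it. Dnmt1 was most like Hdgfrp2 (0.978), Tfdp1 (0.973) and Tspan33 (0.971), and Ezh2 like Acbd6 (0.988), Wdr31 (0.986) and Galk1 (0.986). The genes nearest to Dnmt3a were Kank3 (0.989), Trim11 (0.983) and Slc44a2 (0.982), those nearest to Tet3 were Zmat3 (0.987), Phip (0.983) and Ube2a (0.981), and those nearest to Kdm6b were Il16 (0.997), Tmem65 (0.989) and Npc1 (0.986).

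On GRCm38 with GENCODE M21 all 10 are protein-coding genes. Dnmt1 lies on chromosome 9 from 20907209 to 20959888, Dnmt3a on chromosome 12 from 3806007 to 3914443, Dnmt3b on chromosome 2 from 153649450 to 153687730, Tet2 on chromosome 3 from 133463679 to 133545139 and Tet3 on chromosome 6 from 83362373 to 83459084. Ezh1 lies on chromosome 11 from 101191115 to 101226463, Ezh2 on chromosome 6 from 47530139 to 47595341, Asxl1 on chromosome 2 from 153345829 to 153404007, Kdm6a on chromosome X from 18162575 to 18279936 and Kdm6b on chromosome 11 from 69398508 to 69413675. Exons of 5 members overlap a gene on the other strand, by 133 bases for Dnmt3a, 43 for Tet2, 174 for Ezh2, 197 for Asxl1 and 286 for Kdm6b, and whether the counting used strand is not given in the sources used here. For 6 members the FPKM values gave numbers of reads, from 313 to 583 per library for Tet2, 575 to 859 for Tet3, 697 to 1024 for Ezh1, 714 to 1019 for Asxl1 and 669 to 982 for Kdm6a beside those of Kdm6b. They are lower bounds, since the true step can be smaller. The values of Dnmt1, Dnmt3a, Dnmt3b and Ezh2 gave none.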

How the data were processed

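RNA from about 3000 sorted cells per library was made into full-length cDNA libraries. The authors deposited 1 FPKM value per gene symbol and library, not pooled. The submitters' processing notes name TopHat2 2.1.1, Bowtie2 2.2.8, SAMtools 0.1.18, Cuffdiff 2.2.1 and the build mm10; the annotation is not given in the sources used here. Groups were taken from the sample titles.

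From these values log2(FPKM + 1) was computed for the 12003 genes that reached an FPKM of 1 in 2 or more libraries. The 4 group means were fitted with limma 3.58.1 (R 4.3.3), using a mean-variance trend and no replicate block (4 residual degrees of freedom, prior 5.18), and p-values were adjusted over all tested genes. The procedure was tested on simulated data. The 10 members and the other gene lists were chosen with earlier results of these data known. All members are named with their values, and from each other list up to 4 called genes with the largest change per comparison, with Eed, Suz12, Tet1, H19, Igf2, Cdkn2a and Cdkn2b chosen after their values were seen. Read numbers were recovered from FPKM steps with a tolerance of 0.03, and cover counting error only. Alternatives covered the pseudocount, filter, scaling, trend, fold threshold, groups in the fit, a replicate block and the omission of each library.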

Additional observations from a re-analysis of the deposited data

Results flagged for a closer look

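The effect of RBCs in HSCs minus that in LSK cells passed the test of the difference for 2 genes of the lists. For Wdr5, a core subunit of the H3K4 methyltransferase complexes, it was 0.692 on the log2 scale, with higher values with RBCs in HSCs and lower values with RBCs in LSK cells (limma, adjusted p = 0.041). For Hbb-b1, a hemoglobin gene carried by red cells, it was 5.21 on the log2 scale (limma, adjusted p = 0.0031), and its reads can be shared with closely related hemoglobin genes. None of the 10 regulators passed this test.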

How the results depend on the processing

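Counts of called members changed as follows. With RBCs in LSK cells the count of 1 (Dnmt3b) became 0 with no filter on low values, without the mean-variance trend, with the 2 groups fitted alone and with a 2-fold threshold, and lay between 0 and 1 when 1 library was left out. A 2-fold threshold also gave 0 in place of 4 between LSK cells and HSCs with RBCs and 0 in place of 6 on average, and without 1 library these counts lay between 2 and 5. With no filter the average count was 4, and with genes at an FPKM of at least 1 in all 8 libraries it was 5. The count of 4 with RBCs was 3 with that filter, a pseudocount of 0.1, quantile normalization or the 2 groups fitted alone, and 5 without the trend. Without RBCs, the count of 0 between the cell types became 1 (Dnmt3a) without the trend. For RBCs averaged over both cell types, the count of 0 became 1 (Dnmt3b) with genes at an FPKM of at least 1 in all 8 libraries, and lay between 0 and 1 without 1 library. In such fits the lone library of a group is assumed to vary like the others.

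Quantile normalization turned the sign of Kdm6a between the cell types, to -0.0393 without RBCs and -0.0478 on average.

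Without 1 library, log2 fold changes near 0 turned sign. With RBCs in HSCs the values lay from -0.0687 to 0.226 for Dnmt1, -0.0517 to 0.129 for Dnmt3a, -0.249 to 0.153 for Tet2, -0.126 to 0.223 for Tet3, -0.00624 to 0.186 for Ezh1 and -0.111 to 0.0266 for Ezh2. With RBCs in LSK cells they lay from -0.0702 to 0.0512 for Asxl1 and -0.00767 to 0.428 for Kdm6a. Between the cell types they lay from -0.24 to 0.0548 for Dnmt1 and -0.0797 to 0.102 for Kdm6a without RBCs, and for Kdm6a from -0.219 to 0.218 with RBCs and -0.104 to 0.114 on average. The causes were not tested.

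The replicate numbers did not pair the libraries (correlations of deviations from -0.067 to 0.0954), and a fit with the replicate block kept the counts at 1 in LSK cells with RBCs, 4 between the cell types with RBCs and 6 on average.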
